A study of Mus musculus with 40 samples.

Results

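Neurog1, Neurog2, Neurod4, Vxn, Dll1, Dll3, Notch1, Hes5 and Hes6 are 9 of the 55487 genes in the count table of this series. They were selected from measured values as well as from their place in the proneural and Notch pathway, since Neurod4 and Vxn had been seen at higher levels in ES-astrocyte libraries than in ES-motor neuron libraries of the same data. The levels of the 9 genes in the 2 cell types are therefore given as a description, with no test. What the choice did not use, the response to each stimulus within a cell type, was tested across all genes.

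Proneural factors of the bHLH family drive progenitor cells out of the cell cycle and into a neuronal fate, and they switch on Delta ligands. A Delta ligand binds Notch on a neighbouring cell, the receptor is cleaved, and its inner part joins RBPJ to switch on Hes repressors, which hold the proneural genes down and keep that neighbour a progenitor. In the ventral spinal cord and brainstem this exchange paces the birth of motor neurons and interneurons before the progenitors turn to making glia.

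All 40 libraries came from a mouse ES-cell line, made from B6.Cg-Tg(Hlxb9-GFP)1Tmj/J mice, which carries eGFP under the Hb9 (Mnx1) promoter. ES-astrocytes grown to passage 3 and matured with forskolin were given for 24 h a control treatment, IL-1α+TNF-α, IL-1β+IL-6, C1Q+C5 or TGF-β2, after which eGFP-positive ES-motor neurons were plated onto them. FACS parted each co-culture into ES-astrocytes and eGFP-positive ES-motor neurons, about 200 cells per sample, for polyA RNA sequencing. Each of the 2 cell types had 4 biological replicates (A to D, each a vial of cells of its own) under each of the 5 treatments, and ES-motor neuron libraries carry the name of the stimulus that the ES-astrocytes beneath them had received. ES-motor neurons are defined by a reporter, while no positive marker of the sorted ES-astrocytes is given in the sources used here, so cells of the culture without eGFP, such as interneurons and progenitors, could be among them.

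Total counts ran from 1510823 to 16054290 in the ES-astrocyte libraries (median 4670241.5) and from 6557 to 19717324 in the ES-motor neuron libraries (median 1213482). By treatment, the ES-astrocyte libraries held 2848750 to 13384392 counts in the control group, 2019196 to 14831839 with IL-1α+TNF-α, 1510823 to 10158932 with C1Q+C5, 2141079 to 16054290 with IL-1β+IL-6 and 2787407 to 10099902 with TGF-β2. In 9 libraries, all of ES-motor neurons, the total was under 20% of the median library. These were the 4 libraries with IL-1α+TNF-α (117344, 445874, 300549 and 112775 counts), replicate A with C1Q+C5 (6557), replicate A with TGF-β2 (283205), replicates B and D with IL-1β+IL-6 (80315 and 146775) and control replicate C (240859). Levels are in CPM (counts scaled to a common library total) scaled by TMM factors, and 3 counts, the most that a reading of 0 allows, stood on this scale for 0.230 to 2.04 CPM in ES-astrocyte libraries and for 0.153 to 202 CPM in ES-motor neuron libraries. This floor covers counting error only. The sample sheet puts control and IL-1α+TNF-α samples on plate 1 and the other 3 stimuli on plate 2, so that plate and stimulus cannot be told apart in the comparisons of those 3 with control.

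The ES-motor neuron libraries held the markers of their label, and the ES-astrocyte libraries held only some of theirs. Over 8 motor neuron markers the median summed level was 987 CPM in ES-motor neuron libraries, led by Mnx1 (mean 1052 CPM), and 39.1 CPM in ES-astrocyte libraries, led by Isl1 (mean 25.1 CPM). Over 11 astrocyte markers, 8 of them detected in ES-astrocyte libraries, it was 1539 CPM in ES-astrocyte libraries and 46.8 CPM in ES-motor neuron libraries, with the radial glial lipid carrier Fabp7 most abundant in both (means 1426 and 24.4 CPM). Detected means a count in at least 1 library of the cell type, and 5 of the 11 had a median over 0 in ES-astrocyte libraries. The markers Gfap, Aqp4 and Aldh1l1 were at 0 in all 20 ES-astrocyte libraries. Slc1a2 and Slc1a3 had counts in all 20 (means 127.8 and 35.4 CPM, against 18.1 and 1.18 CPM in ES-motor neuron libraries). Gja1 had counts in 19 (mean 62.1 against 0.162 CPM) and Fgfr3 in 17 (mean 11.4 against 0.476 CPM). Sparcl1, Aldoc and S100b had counts in only 8, 4 and 1 of them.

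The same ES-astrocyte libraries held markers of neurons, interneurons, progenitors and dividing cells. Of 12 ventral interneuron markers 11 were detected, at a median sum of 286 CPM against 20.4 CPM in ES-motor neuron libraries, led by Gata3 (mean 108 CPM) and with Evx1 at 0. In ES-motor neuron libraries Tal1, Foxn4, Evx1, Sim1 and Lhx5 were at 0, and Lhx1 led (mean 19.1 CPM). The sum over 10 neuronal markers was 3238 CPM against 8946 CPM, led by Stmn2 in both cell types (means 971 and 3153 CPM). Neural progenitor markers (8 of 8 detected) summed to 1030 CPM in ES-astrocyte libraries and 267 CPM in ES-motor neuron libraries, led by Msi1 (means 651 and 266 CPM). Markers of cycling cells (8 of 8 detected) summed to 1167 CPM against 90.1 CPM, led by Top2a (mean 417 CPM) in ES-astrocyte libraries and Pcna (mean 81.1 CPM) in ES-motor neuron libraries. Fibroblast or mesenchyme markers (7 of 7 detected, 3 with a median over 0) summed to 203 CPM in ES-astrocyte libraries, led by Dcn (mean 220.4 CPM), and reached 1119 CPM in control replicate B, against a median of 0 in ES-motor neuron libraries. Oligodendrocyte lineage markers summed to 9.01 CPM in ES-astrocyte libraries, led by Nkx2-2 (mean 5.31 CPM) with Sox10 and Mag at 0, and to 5.75 CPM in ES-motor neuron libraries, led by Mbp. Microglial markers summed to 0.481 and 3.38 CPM, led by Csf1r in both, with Aif1, P2ry12 and C1qa at 0 in both. Pluripotency markers summed to 0.162 and 0 CPM, led by Nanog, with Pou5f1 and Zfp42 at 0 in both. How far each of these cell types contributes to the levels of the 9 genes was not tested, and fewer cells of a type and less RNA per cell cannot be told apart in such samples.

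**Figure D1:**
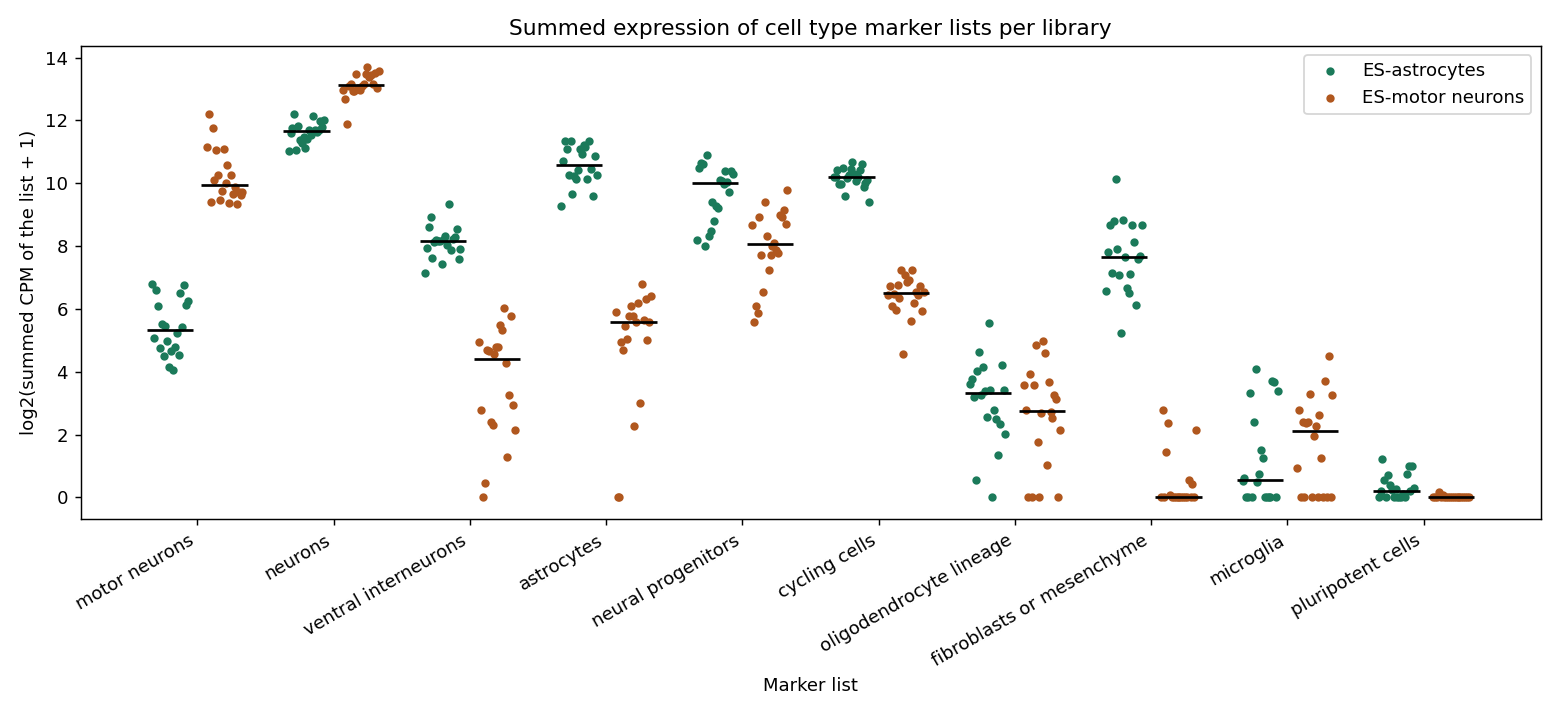
Summed expression of each marker list in each library, as log2(summed CPM + 1), for the 20 ES-astrocyte and 20 ES-motor neuron libraries, with each point 1 library and the line the median. Motor neuron markers have a median of 39.1 CPM in ES-astrocyte libraries and 987 CPM in ES-motor neuron libraries, and cycling cell markers 1167 and 90.1 CPM.

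Neurog1 and Neurog2, the proneural factors at the start of the neuronal programme, were low and uneven in ES-astrocyte libraries. Neurog1 (ENSMUSG00000048904, chr13:56250478-56252163 in GRCm38, minus strand) had 0, 2.58 and 99.2 CPM as its lowest, median and highest level over the 20 ES-astrocyte libraries and 0 counts in every ES-motor neuron library. With 1300 counts against 0, and 3 counts over the group as the floor, its depth-scaled level was at least 239.7-fold higher in ES-astrocytes. One library carried most of this: control replicate A stood at 99.2 CPM and held 61.5% of the summed CPM, the next highest library stood at 13.2 CPM, and the ES-astrocyte mean of 8.06 CPM was 3.27 CPM without it. The lower bound was then at least 74.0-fold.

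The control libraries A to D had 99.2, 2.53, 1.46 and 0 CPM of Neurog1, and those with C1Q+C5 had 9.41, 8.85, 0 and 13.2 CPM. From low to high, group means were 1.08 ± 1.97 CPM (SD, n = 4) with IL-1β+IL-6, 1.27 ± 2.27 with TGF-β2, 4.29 ± 1.2 with IL-1α+TNF-α, 7.87 ± 5.59 with C1Q+C5 and 25.8 ± 48.9 in control, the last being 1.33 CPM without replicate A. Neighbours in this order overlapped, and the 4 libraries with IL-1α+TNF-α (4.44, 2.64, 4.59 and 5.51 CPM) were the only complete group in which each library held Neurog1.

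Neurog2 (ENSMUSG00000027967, chr3:127633135-127635631, plus strand) ranged from 0 to 46.2 CPM in ES-astrocyte libraries with a median of 7.28 CPM. It had counts in 18 of the 20, with 46.2 CPM again in control replicate A. In ES-motor neuron libraries it had 45 counts in all, spread over 7 of 20 libraries, with a highest level of 9.16 CPM and a mean of 1.26 CPM. Group means ran from 7.08 ± 5.31 CPM with TGF-β2 through 8.70 ± 3.71 with IL-1α+TNF-α, 9.67 ± 14.3 with IL-1β+IL-6 and 10.6 ± 4.50 with C1Q+C5 to 17.1 ± 20.3 in control, where the mean without replicate A was 7.44 CPM. The group ranges overlapped throughout.

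Neurod4, a bHLH factor that acts after the neurogenins in differentiating neurons, was high in each ES-astrocyte library (ENSMUSG00000048015, chr10:130268152-130280240, minus strand). Its lowest, median and highest levels were 26.2, 108 and 342 CPM over the 20 ES-astrocyte libraries, and 0, 0 and 22.6 CPM over the 20 ES-motor neuron libraries. Counts of Neurod4 were found in 5 ES-motor neuron libraries, and the highest level, in IL-1β+IL-6 replicate B, rested on 2 counts, below the floor of that library (33.8 CPM). In the 11 ES-motor neuron libraries above 20% of the median total, where the floor is at most 3.07 CPM, the highest level was 9.04 CPM, while in the other 9 the floor is 6.46 to 202 CPM. The depth-scaled level, with counts pooled over libraries, was 77.1-fold higher in ES-astrocytes.

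In the control libraries A to D, Neurod4 stood at 41.2, 148, 342 and 119.8 CPM, and with IL-1α+TNF-α at 219, 238, 90.4 and 150.1 CPM. It stood at 26.2, 259, 79.4 and 121 CPM with C1Q+C5, at 43.5, 164, 63.5 and 55.3 CPM with IL-1β+IL-6 and at 96.9, 169.5, 79.7 and 44.8 CPM with TGF-β2. The group ranges overlapped, as did neighbours in the order of the means, which ran from IL-1β+IL-6 (81.7 ± 55.8 CPM) through TGF-β2 (97.7 ± 52.5), C1Q+C5 (121 ± 99.7) and control (163 ± 128) to IL-1α+TNF-α (174.5 ± 67.6).

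Vxn encodes vexin, a cofactor that aids proneural factors in neurogenesis, and was the most even of the 9 genes across ES-astrocyte libraries (ENSMUSG00000067879, chr1:9601199-9627143, plus strand). Its lowest, median and highest levels were 50.9, 171 and 289 CPM, with a coefficient of variation of 33.3% against 270.0% for Neurog1. In ES-motor neuron libraries the lowest, median and highest levels were 0, 1.55 and 37.2 CPM, with counts in 13 of 20. Among the same 11 ES-motor neuron libraries the highest level was 26.6 CPM, and the depth-scaled level was 31.2-fold higher in ES-astrocytes. On the opposite strand Vxn overlaps 2610203C22Rik, which had 2209 counts in the table, and as the strand setting of the counting is not given in the sources used here, some reads of either gene may have gone to the other.

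With C1Q+C5 the libraries A to D held 288.5, 225, 183 and 186 CPM of Vxn, and with IL-1β+IL-6 132, 144, 167 and 50.9 CPM. These were the groups of highest and lowest mean, and every pair of neighbours in the order overlapped. The means were 123 ± 50.4 CPM with IL-1β+IL-6, 139 ± 34.3 with IL-1α+TNF-α, 157 ± 47.3 in control, 196 ± 51.2 with TGF-β2 and 221 ± 49.0 with C1Q+C5. Levels in the other groups, A to D, were 129, 175, 109.6 and 215 CPM in control, 183, 142, 128.5 and 101 CPM with IL-1α+TNF-α, and 135, 260.4, 195 and 192.5 CPM with TGF-β2. The difference between C1Q+C5 and IL-1β+IL-6, a pair picked by its means, was not tested.

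Dll1, the Delta ligand that activates Notch on neighbouring cells, was found in each ES-astrocyte library (ENSMUSG00000014773, chr17:15367354-15376872, minus strand). Its lowest, median and highest levels were 8.17, 29.8 and 69.3 CPM there, and 0, 0 and 17.3 CPM in ES-motor neuron libraries, of which 9 of 20 held a count. The highest ES-motor neuron value, in IL-1α+TNF-α replicate D, rested on 2 counts, and the cell types overlapped. Group means ran from 19.8 ± 12.6 CPM with TGF-β2 through 30.6 ± 16.5 with IL-1α+TNF-α, 35.38 ± 21.1 with C1Q+C5 and 35.39 ± 24.9 in control to 36.7 ± 10.9 with IL-1β+IL-6, all with overlapping neighbours. Dll1 overlaps A930024N18Rik on the opposite strand, for which no count was available, so whether reads were shared is uncertain.

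Dll3, a divergent Delta protein that holds back Notch signalling inside the cell that makes it, was also found in each ES-astrocyte library (ENSMUSG00000003436, chr7:28293553-28302238, minus strand). Its lowest, median and highest levels were 2.55, 26.6 and 212 CPM there, and 0, 4.00 and 23.9 CPM in ES-motor neuron libraries, of which 12 of 20 held a count. The lowest and the highest of the ES-astrocyte levels both came from control libraries, which held 212, 36.6, 2.55 and 8.38 CPM. A second library stood apart with C1Q+C5, where the levels were 39.7, 27.2, 52.3 and 205 CPM. Group means were 22.8 ± 12.2 CPM with IL-1α+TNF-α, 24.7 ± 3.99 with IL-1β+IL-6, 30.1 ± 7.67 with TGF-β2, 65.0 ± 99.4 in control (15.9 CPM without replicate A) and 81.1 ± 83.3 with C1Q+C5, with overlapping neighbours.

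Notch1, the receptor, had a lowest, median and highest level of 10.96, 42.1 and 131 CPM in ES-astrocyte libraries and of 0, 0.0633 and 8.10 CPM in ES-motor neuron libraries (ENSMUSG00000026923, chr2:26457903-26516663, minus strand). Only 47 counts of it were found over the 20 ES-motor neuron libraries, against 5313 over the ES-astrocyte libraries, a depth-scaled difference of 62.5-fold. The 8.10 CPM came from 1 of the 11 libraries above 20% of the median total, and the other 9 read 0, with a floor above the lowest ES-astrocyte level in 7 of them and above the ES-astrocyte median in 1. Notch1 overlaps 0610009E02Rik and Gm13568 on the opposite strand, so part of its count is uncertain.

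Hes5, a repressor that Notch switches on, was at 0 in most libraries of both cell types (ENSMUSG00000048001, chr4:154960923-154962371, plus strand). It had counts in 6 of 20 ES-astrocyte libraries, with 11.5 and 1.82 CPM in control replicates A and C, 3.95 and 0.459 CPM in IL-1α+TNF-α replicates B and C, and 18.9 and 0.679 CPM in C1Q+C5 replicates B and C. It was at 0 in all 8 ES-astrocyte libraries with IL-1β+IL-6 or TGF-β2, so the order of its means runs from those groups through IL-1α+TNF-α (1.10 ± 1.91 CPM) and control (3.33 ± 5.52) to C1Q+C5 (4.89 ± 9.34). Among ES-motor neurons 1 library, control replicate B, held it, with 16 counts. Hes5 overlaps Gm20421 (87 counts) on the opposite strand.

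Hes6, which binds Hes1, blocks its repression and promotes neuronal differentiation, had the highest mean level per kb of exon of the 9 genes, though not the highest median (ENSMUSG00000067071, chr1:91411483-91414038, minus strand). Its lowest, median and highest levels were 36.6, 70.5 and 1068 CPM in ES-astrocyte libraries and 0, 6.69 and 135 CPM in ES-motor neuron libraries, of which 15 of 20 held a count. The cell types overlapped, although the highest ES-motor neuron value was 2 counts in the C1Q+C5 library of 6557 total counts, below its floor of 202 CPM. The depth-scaled level was 6.76-fold higher in ES-astrocytes, or 4.17-fold without control replicate A. Control libraries A to D held 1068, 44.3, 198 and 41.9 CPM, so that replicate A set the control mean of 338 ± 492 CPM, which was 94.7 CPM without it.

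Hes6 stood at 38.7, 264, 72.9 and 43.5 CPM with IL-1α+TNF-α and at 63.2, 353, 114 and 199.8 CPM with C1Q+C5. It stood at 50.8, 136, 66.7 and 68.1 CPM with IL-1β+IL-6 and at 272, 104, 50.8 and 36.6 CPM with TGF-β2. Neighbours in the order of the means overlapped, from 80.3 ± 37.8 CPM with IL-1β+IL-6 through 105 ± 107 with IL-1α+TNF-α, 116 ± 108 with TGF-β2 and 183 ± 127 with C1Q+C5 to control.

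**Figure D2:**
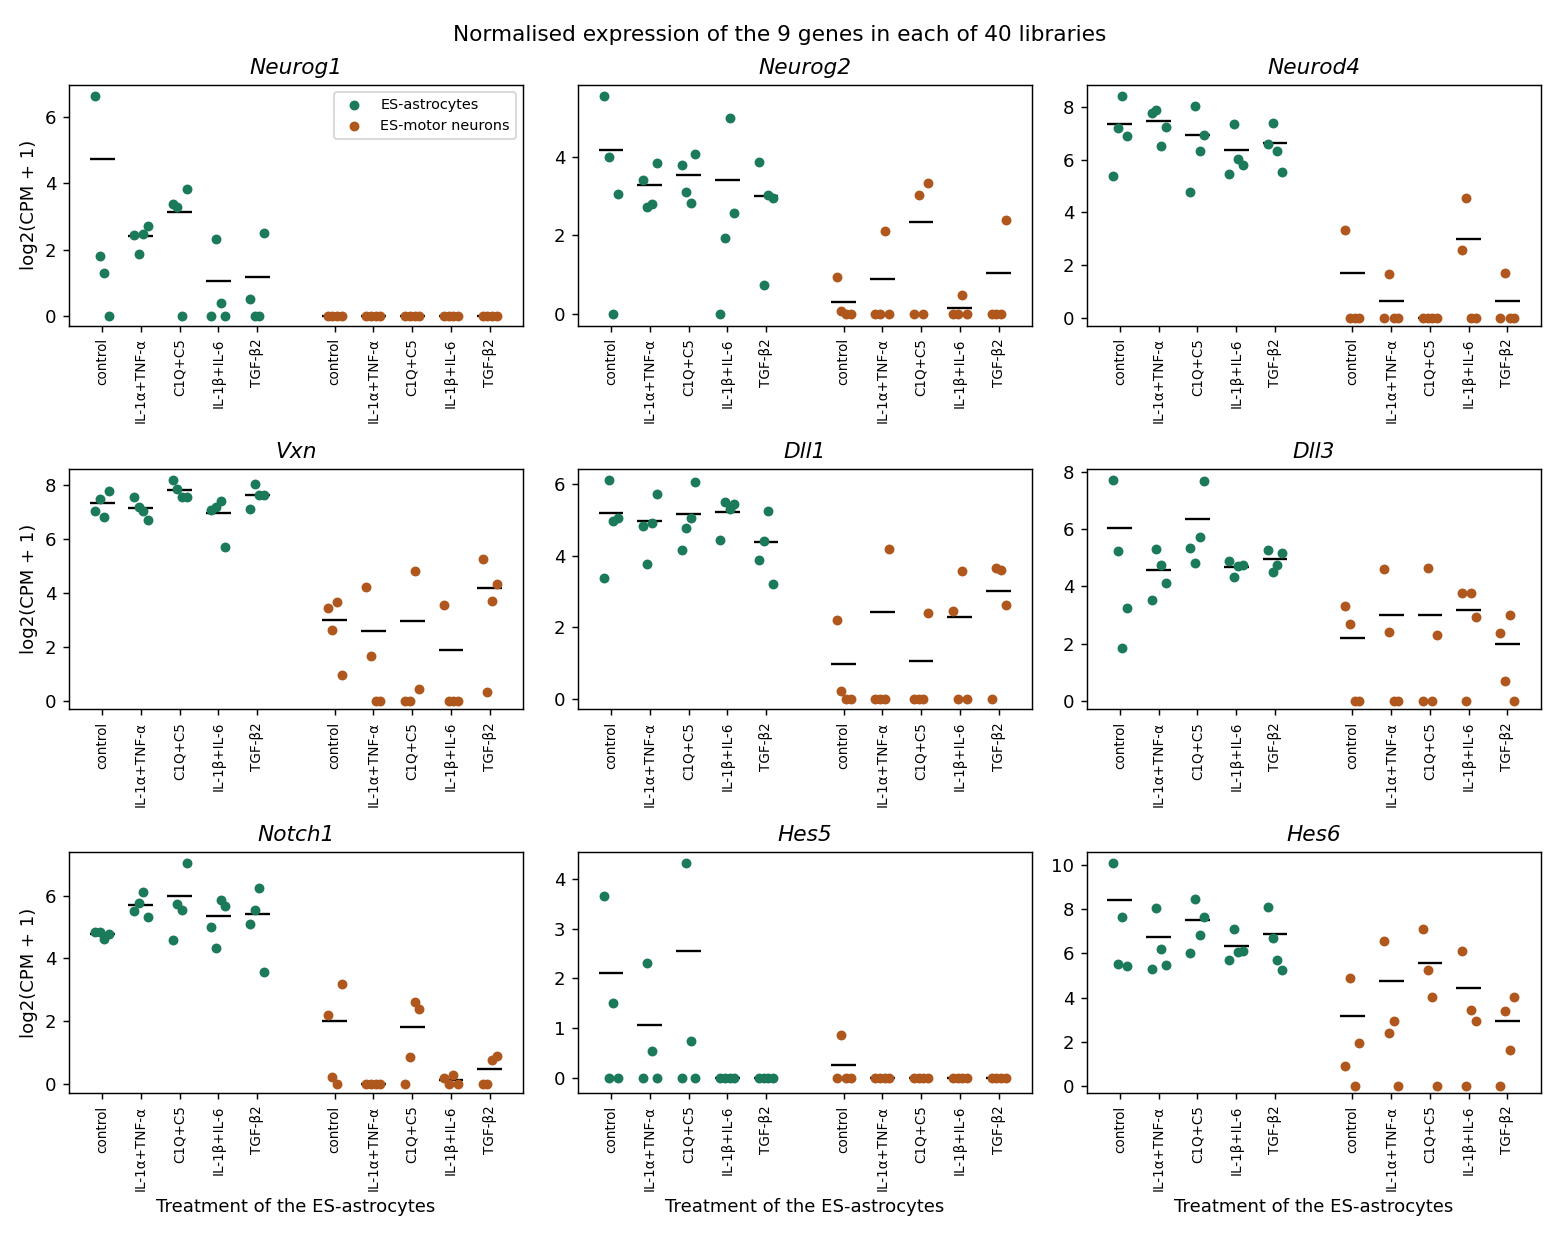
Level of each of the 9 genes in each of the 40 libraries as log2(CPM + 1), by the treatment of the ES-astrocytes, with replicates A to D from left to right and the line at the group mean of CPM on the same scale. Neurod4 is between 26.2 and 342 CPM in ES-astrocyte libraries and at most 22.6 CPM in ES-motor neuron libraries, while Neurog1 reads 0 in all ES-motor neuron libraries.

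Per kb of exon, the mean ES-astrocyte level was 90.9 CPM for Hes6, 51.4 for Vxn and 38.2 for Neurod4. It was 15.7 CPM per kb for Dll3, 7.48 for Dll1, 4.78 each for Neurog1 and Neurog2, 3.13 for Notch1 and 1.37 for Hes5. Without control replicate A it was 64.6 CPM per kb for Hes6 and 1.94 for Neurog1, below Notch1 (3.19). The medians per kb were 52.4 CPM for Vxn, 39.0 for Hes6, 32.4 for Neurod4, 9.32 for Dll3, 7.06 for Dll1, 3.27 for Neurog2, 2.96 for Notch1, 1.53 for Neurog1 and 0 for Hes5. By mean and by median Hes6, Vxn and Neurod4 stood above the ligands, and the ligands above the neurogenins, Notch1 and Hes5.

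Across all genes, 13227 passed the filter for the cell type comparison, which answers how the co-cultured cell types differ, and 11% of them were called higher in ES-astrocytes and 3.86% higher in ES-motor neurons (adjusted p at most 0.05 and more than 1 log2 unit). Of the 9 genes 8 passed this filter and Hes5 did not. These genes were chosen with this contrast in view, so their values here, those within plates included, are a description with no test. The log2 difference, ES-motor neurons minus ES-astrocytes, was -6.35 for Neurod4, with -6.64 within plate 1 and -6.19 within plate 2. For Vxn it was -4.54, with -4.73 and -4.37 within the plates. Notch1 had -5.19, with -4.02 within plate 1, -5.92 within plate 2 and -3.01 in the control libraries alone.

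Neurog2, Dll1, Dll3 and Hes6 were also lower in ES-motor neurons within each plate. The log2 difference was -3.43 for Neurog2 with -4.77 and -2.68 within plates 1 and 2, and -3.32 for Dll1 with -4.50 and -2.69. For Dll3 it was -2.80 with -2.92 and -2.63. Hes6 had -3.18 with -3.63 and -2.82, and -2.75 without ES-astrocyte control replicate A. The control group alone gave -5.32 for Dll1. Neurog1, at 0 in ES-motor neurons, has only the lower bound given above. Among the 11 ES-motor neuron libraries above 20% of the median total, 0 held Neurog1, 3 Neurod4, 6 Neurog2, 9 Vxn, 8 Dll1, 8 Dll3, 10 Notch1, 1 Hes5 and 10 Hes6. The primer that carries the second index differs between the cell types throughout, so that primer and cell type cannot be told apart.

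Control replicate A of the ES-astrocytes stood apart in more than 1 of the genes. Of 20 ES-astrocyte libraries it ranked 1 for Neurog1, Neurog2, Dll3 and Hes6, 2 for Hes5, and 19 for both Neurod4 (41.2 CPM) and Dll1 (9.37 CPM). In the same library the summed astrocyte markers (616.5 CPM), neuronal markers (2109 CPM) and ventral interneuron markers (140.8 CPM) were the lowest of the 20, and the motor neuron markers (109 CPM) the highest. Its total of 7866943 counts was above the ES-astrocyte median, and its TMM factor was 1.19. The part of cell composition in its levels was not tested.

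The stimulus comparisons ask whether a neuroinflammatory signal moves the genes in the stimulated ES-astrocytes, and none of those tested was called. The 4 comparisons share their control libraries. With IL-1α+TNF-α, 0 of 8 genes tested were called, as were 0% of all 10444 genes (edgeR), while 93 genes had an unadjusted edgeR p under 0.05, none of them among the 8, and DESeq2 called 25 genes, none of them among the 8 of the 9 for which it gave a p. With C1Q+C5 edgeR called 0 of 8 genes and 0% of 10865, with 106 at an unadjusted p under 0.05 (0 of the 8) and 40 called by DESeq2 (0 of the 6 it gave a p). With IL-1β+IL-6 it called 0 of 7 and 0% of 10240, with 119 at an unadjusted p under 0.05 (0 of the 7) and 56 called by DESeq2 (0 of the 8 it gave a p). With TGF-β2 it called 0 of 7 and 0% of 10794, with 136 at an unadjusted p under 0.05 (0 of the 7) and 58 called by DESeq2 (0 of the 8 it gave a p).

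Notch1 had the smallest edgeR p of the 8 genes tested with IL-1α+TNF-α, the stimulus that shares a plate with control. It stood at 45.1, 54.0, 68.8 and 39.0 CPM in the stimulated libraries A to D and at 27.5, 27.8, 23.7 and 26.8 CPM in the control libraries. All 4 stimulated libraries lay above all 4 control libraries. No other of the 9 genes was free of overlap in this comparison. Of all genes tested, 1.88% had no overlap between the groups, whichever group was higher. The log2 difference was 1.01 (SE 0.48), with an edgeR adjusted p of 0.9999, and it ranged from 0.84 to 1.12 when any 1 library was left out. The unadjusted p was 0.0615 by edgeR and 0.00125 by DESeq2 (adjusted p = 0.263, and 0.698 by edgeR with no filter). With no filter the unadjusted edgeR p was smaller for Neurog1 (0.124) and Dll3 (0.150) than for Notch1 (0.154). The group means were 51.8 ± 12.9 and 26.4 ± 1.89 CPM.

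Notch1 also had the smallest edgeR p of the 8 tested with C1Q+C5, where the libraries held 22.9, 52.1, 46.2 and 131 CPM. Replicate A lay below the control libraries and replicate D far above them, so the groups overlapped, as they did for each of the 9 genes (0 without overlap against 1.92% of all genes). The log2 difference was 1.31 (SE 0.63), with an edgeR adjusted p of 0.9999, and 0.65 without C1Q+C5 replicate D. The unadjusted p was 0.0624 by edgeR and 0.0259 by DESeq2 (adjusted p = 0.788, and 0.567 by edgeR with no filter). Notch1 levels with IL-1β+IL-6 were 31.5, 19.3, 57.8 and 49.95 CPM, and with TGF-β2 33.7, 46.1, 75.3 and 10.96 CPM, both overlapping control. By mean level the order of the groups was control, IL-1β+IL-6 (39.6 ± 17.5 CPM), TGF-β2 (41.5 ± 26.8), IL-1α+TNF-α and C1Q+C5 (63.0 ± 47.0), and neighbours in this order overlapped.

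Hes6 had the smallest edgeR p of the 7 genes tested with IL-1β+IL-6 and of the 7 with TGF-β2, and in both the value turned on control replicate A. The log2 difference with IL-1β+IL-6 was -2.06 (SE 0.96, edgeR adjusted p = 0.9999), and -0.21 without that library. The unadjusted p was 0.0552 by edgeR and 0.0361 by DESeq2 (adjusted p = 0.689, and 0.481 by edgeR with no filter). With TGF-β2 it was -1.47 (SE 1.03, edgeR adjusted p = 0.9999), 0.34 without control replicate A and -2.38 without TGF-β2 replicate A. With no filter the unadjusted edgeR p was smaller for Hes5 (0.0372 with IL-1β+IL-6 and 0.0312 with TGF-β2) and Neurog1 (0.0481 and 0.0466) than for Hes6 (0.0733 and 0.265), with an adjusted p of 0.438 and 0.454 for both genes. By DESeq2 the unadjusted p with TGF-β2 was 0.0549 for Hes5 and 0.154 for Hes6. No gene of the 9 was free of overlap in either comparison (0 against 1.84% of all genes with IL-1β+IL-6 and 2.31% with TGF-β2).

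Genes under the filter were compared by CPM with an exact two-sided permutation test, whose smallest possible p is 0.0286 with 4 against 4 libraries. For Hes5 in ES-astrocytes the exact p was 0.714 with IL-1α+TNF-α, 0.886 with C1Q+C5 and 0.429 with each of the other stimuli. For Neurog1 it was 0.543 with IL-1β+IL-6 and also 0.543 with TGF-β2. The test of any difference among the 5 ES-astrocyte treatments called 0 of 8 of the genes and 0% of 13195 (edgeR), with 345 genes at an unadjusted p under 0.05 (0 of the 8) and 6 called by DESeq2 (0 of the 9). In this test Vxn had an unadjusted p of 0.0232 by DESeq2 (adjusted p = 0.9999) and Hes5 one of 0.0296 with no filter (adjusted p = 0.235).

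In ES-motor neurons the comparisons ask whether levels differ in neurons plated on stimulated ES-astrocytes, and few of the 9 genes had the counts for a test. With IL-1α+TNF-α 0 of the 9 genes passed the filter, while 0% of 4479 genes were called by edgeR (143 at an unadjusted p under 0.05, and 1 called by DESeq2). With C1Q+C5, 0 of 1 gene tested and 0% of 7348 were called (322 at an unadjusted p under 0.05, 0 by DESeq2, and 2 called by edgeR without control replicate D). That gene was Hes6, at 135, 37.4, 15.3 and 0 CPM with C1Q+C5 and at 0.904, 28.6, 0 and 2.86 CPM in control, where the groups overlap. Its log2 difference was 1.48 (SE 1.25, edgeR adjusted p = 0.9974), and 3.98 without control replicate B.

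With IL-1β+IL-6, 0 of 2 genes tested and 0% of 8327 were called in ES-motor neurons (98 at an unadjusted p under 0.05, 1 by DESeq2). Hes6 had the smaller p, at 67.2, 0, 9.76 and 6.68 CPM, overlapping control, with a log2 difference of 1.39 (SE 1.10, edgeR adjusted p = 0.9999). Without IL-1β+IL-6 replicate A it did not pass the filter, and the means were 5.48 CPM against 8.08 CPM in control, the other direction. With TGF-β2, 0 of 1 gene tested was called, against 0.0126% of 7947 (221 at an unadjusted p under 0.05, 17 by DESeq2). The gene tested was Vxn, at 37.2, 0.257, 11.9 and 18.8 CPM against 9.94, 5.10, 11.5 and 0.953 CPM in control, again overlapping. Its log2 difference was 1.34 (SE 1.24, edgeR adjusted p = 0.999), and 0.63 without TGF-β2 replicate A. The single gene called there was Hoxa5, outside the 9 and named after its value was seen (log2 difference 3.05, SE 0.44, edgeR adjusted p = 0.0103). Without the libraries under 20% of the median total 0 genes were called there, as without control replicate C, TGF-β2 replicate A or TGF-β2 replicate D. The count was 2 without control replicate A, B or D, 3 with the stricter filter, 4 with the replicate block and 5 with no filter. Among genes under the filter, the smallest exact permutation p was 0.143, for Notch1 with IL-1α+TNF-α and for Dll1 with TGF-β2.

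Whether a stimulus moved a gene differently in the 2 cell types was tested as an interaction, and edgeR called 0 of 8 of the genes and 0% of 13227 for each stimulus. Neurog1, 1 of the 8, has 0 counts in ES-motor neurons and could show no difference. Neurog2, Neurod4, Dll1 and Notch1 passed the filter in none of the ES-motor neuron comparisons. They were fitted here through their ES-astrocyte counts, so the interaction cannot decide for them. Vxn, Dll3 and Hes6 each passed in at least 1 of those comparisons. In the order IL-1α+TNF-α, C1Q+C5, IL-1β+IL-6, TGF-β2, 544, 741, 922 and 638 genes had an unadjusted p under 0.05, and DESeq2 called 5, 9, 13 and 5. Of the 9 genes 0, 1, 2 and 2 were among those with an unadjusted p under 0.05 (by DESeq2 1, 1, 2 and 2), and 0 were called by DESeq2. Notch1 had the smallest edgeR p, with IL-1β+IL-6, where the difference of log2 differences was -4.79 (SE 1.52, edgeR adjusted p = 0.397). That value rests on 3 ES-motor neuron counts of Notch1 with IL-1β+IL-6 against 24 in control, and no conclusion is drawn from it.

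Over the 20 ES-astrocyte libraries the 9 genes did not rise and fall as 1 group. Among 36 pairs of genes Spearman's rho of log2(CPM + 1) had a median of 0.13, was above 0 in 24 and above 0.5 in 1. That pair was Hes5 and Hes6, with rho 0.652 and Pearson's r 0.770, or 0.567 without the 2 libraries farthest from the median, although Hes5 reads 0 in most libraries. Neurod4 and Vxn, the genes that led to the choice, had rho 0.027 and r 0.006 (0.351 without 2 libraries). The lowest rho, -0.481, was that of Neurod4 and Dll3 (r -0.48, or -0.348 without 2 libraries). All these points share their libraries and depth, and no p is given.

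Over the same 20 libraries Hes6 ran against several of the marker sums. Its rho with the summed progenitor markers was -0.806 (r -0.845, or -0.81 without 2 libraries, and -0.954 within treatments), a sum in which Msi1 alone has the larger part. With the summed neuronal markers it was -0.645 (r -0.684, or -0.557 without 2 libraries) and with the astrocyte markers -0.486 (r -0.64, or -0.473 without 2 libraries, and -0.762 within treatments). It was -0.495 with the pluripotency and 0.471 with the oligodendrocyte lineage markers, both low in CPM, between -0.268 and 0.339 with the other lists and -0.057 with total counts. Neurod4 had rho 0.511 with the microglial markers (r 0.346, or 0.315 without 2 libraries), which are near 0 CPM, -0.498 with the motor neuron markers (r -0.53, or -0.42), -0.462 with the neuronal markers (r -0.389, or -0.365) and 0.438 with the oligodendrocyte lineage markers (r 0.445, or 0.399). With the other lists it lay between -0.35 and 0.155, and with total counts it was 0.224.

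The genes most like Neurod4 over the 20 ES-astrocyte libraries, by Spearman's rho among 13195 genes, were Cyth1 (rho 0.809, r 0.802, 0.755 without 2 libraries), Galnt1 (0.764, 0.805 and 0.727), Fancb (0.764, 0.677 and 0.588), Man1a (0.759, 0.666 and 0.6) and Kbtbd2 (0.758, 0.636 and 0.677). Those most like Vxn were Dcun1d3 (rho 0.735, r 0.751, 0.741 without 2 libraries), Gm27544 (0.704, 0.645 and 0.662), Gm44777 (0.685, 0.487 and 0.605), Nnt (0.674, 0.661 and 0.641) and Senp6 (0.672, 0.686 and 0.660).

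The rest of the pathway was read from 7 lists of 83 other genes, of which 67 were tested between the cell types. Called higher in ES-astrocytes were 23, called higher in ES-motor neurons 0 and not called 44, where 11% and 3.86% of all genes tested were called, with a median log2 difference of -0.83 against -0.21 over all genes tested (edgeR; 32 of the 67 had an unadjusted p under 0.05, and DESeq2 called 24 and 0). Within plate 1 the count was 10 and within plate 2 it was 19, and in the control libraries alone it was 3. Of the called genes named below, Olig3, Tcf12, Dlk1, Mfng, Adam17 and Id3 were not called within plate 1 (adjusted p from 0.0792 to 0.434). Neither they nor Ebf1, Ebf2 and Maml2 were called in the control libraries alone (adjusted p from 0.0628 to 0.845). Their log2 differences stayed below 0, from -3.76 (Olig3) to -0.994 (Id3) within plate 1. In the control libraries alone they ran from -5.04 (Olig3) to -1.07 (Dlk1). Hes1 and Hes2 did not pass the filter in either setting. Hes2, among the 23, had 0 counts in ES-motor neurons, so it could be called in that direction only. The lists were chosen with earlier results of these data known.

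Genes of neuronal commitment had the most calls, 9 of 13 tested, with a median of -1.85. The antiproliferative Btg2 stood at a log2 difference of -3.21 (SE 0.33, adjusted p = 6.135e-11), and the early neuronal factors Ebf2 at -2.72 (SE 0.28, adjusted p = 1.159e-10) and Ebf1 at -2.04 (SE 0.23, adjusted p = 1.698e-09). In the same list Myt1 had 0.99 (SE 0.26, adjusted p = 0.00359), towards ES-motor neurons and short of the fold threshold. Of 10 other proneural and neuronal bHLH genes tested 6 were called, with a median of -1.81. These included the progenitor factor Olig3 (-5.16, SE 0.87, adjusted p = 9.041e-06) and the bHLH partner Tcf12 (-1.73, SE 0.24, adjusted p = 1.545e-07).

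Among 6 other receptors and ligands tested 2 were called (median -0.84), the receptor Notch2 (-5.94, SE 0.51, adjusted p = 1.128e-12) and the non-canonical ligand Dlk1 (-1.35, SE 0.38, adjusted p = 0.00813). Dlk1 was not called without the libraries under 20% of the median total (-1.08, adjusted p = 0.144). Jag1 had -0.53 and was not called. Of 3 other Notch targets tested 2 were called (median -5.83), Hes1 (-5.83, SE 0.93, adjusted p = 3.426e-06) and Hes2. Hes2 had 628 ES-astrocyte counts against 0, at least 115.8-fold higher. It passed the filter through its ES-astrocyte counts alone and could be called in that direction only, so its call is no evidence of direction. DESeq2 did not call it (adjusted p = 0.0841). The list's median is the same with Hes2 at the bound of 115.8-fold. Hey1 had -1.43 and was not called.

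In the nuclear complex and in processing the share called was no larger than the 11% of all genes called higher in ES-astrocytes. For the nuclear complex it was 1 of 10 (median -0.34), the coactivator Maml2 (-3.06, SE 0.44, adjusted p = 3.552e-07), while Maml3 (-0.99) and Ep300 (-1.05) were not called. Maml3 was called by DESeq2 (-1.02) and with RLE scaling (-1.04) and, at -1.07, without ES-astrocyte control replicate A, at -1.06 without ES-motor neuron control replicate D and at -1.04 without ES-astrocyte IL-1β+IL-6 replicate D. For ligand and receptor processing it was 2 of 21 (median -0.43), the glycosyltransferase Mfng (-3.48, SE 0.94, adjusted p = 0.00482) and the protease Adam17 (-1.01, SE 0.36, adjusted p = 0.0400). Adam17 lay at the threshold and was called in 19 of 51 other settings, most of them without 1 library, with values from -1.59 to -0.77. Pofut1 (-2.50) was not called, but was without ES-astrocyte IL-1α+TNF-α replicate A (-2.67) or C (-2.65), ES-motor neuron IL-1β+IL-6 replicate A (-3.12) or ES-motor neuron IL-1α+TNF-α replicate C (-2.86). Of 4 Id proteins, which keep bHLH factors from DNA, 1 was called (median -0.29), Id3 (-1.40, SE 0.34, adjusted p = 0.00164), while Id4 (0.71) and Id2 (0.33) were not.

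In the stimulus comparisons 0 genes of these lists were called in ES-astrocytes by edgeR or DESeq2. At an unadjusted edgeR p under 0.05 were 1 of 58, 0 of 60, 2 of 56 and 3 of 61 tested, in the order IL-1α+TNF-α, C1Q+C5, IL-1β+IL-6, TGF-β2. Over all genes tested these were 93 of 10444, 106 of 10865, 119 of 10240 and 136 of 10794.

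**Figure D3:**
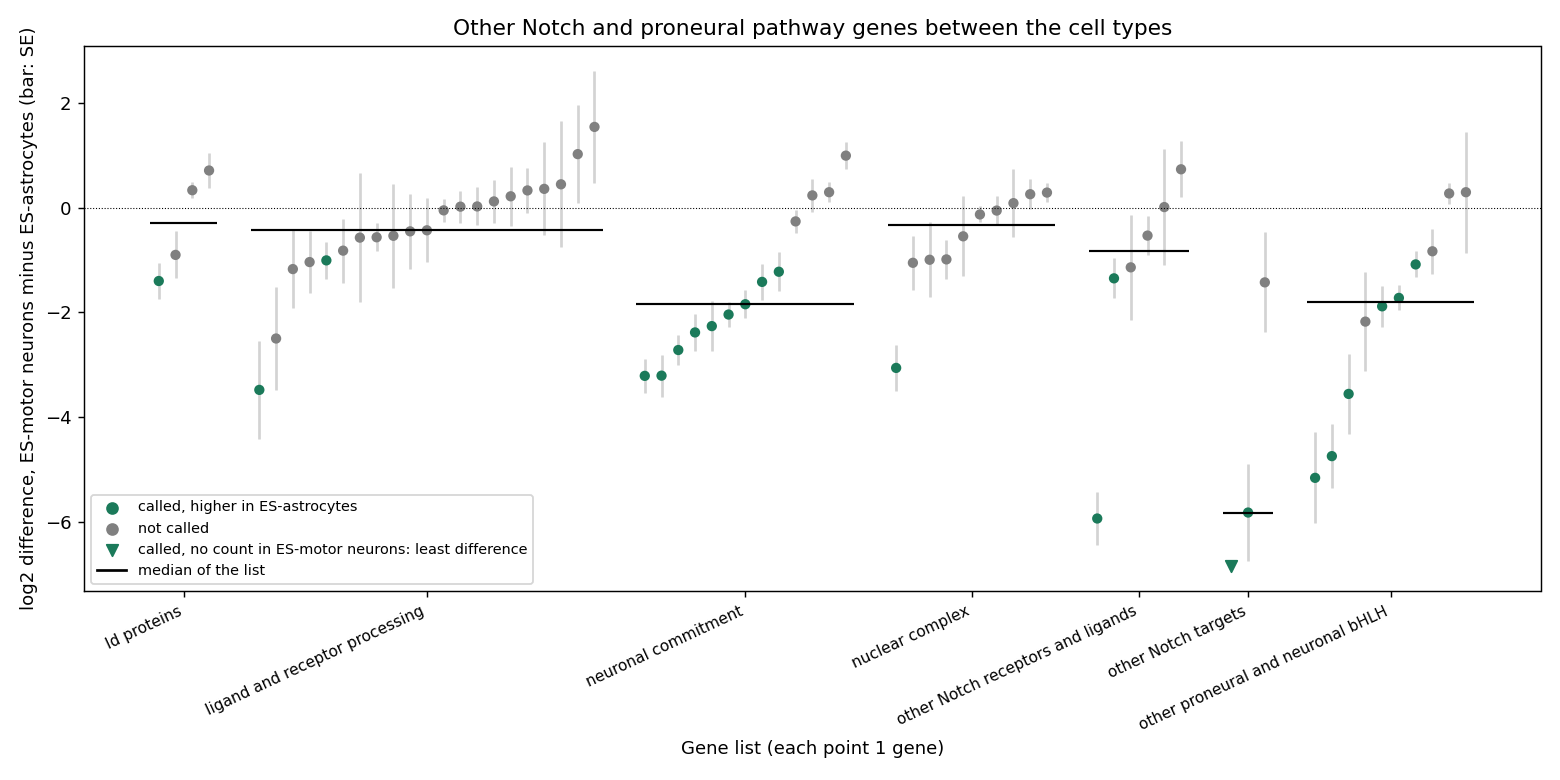
Log2 difference between the cell types, ES-motor neurons minus ES-astrocytes, of each of the 67 pathway genes tested, by list, with bars of 1 SE, a line at the list's median and a triangle at the least difference of Hes2. The 23 called genes lie below 0, from -1.01 for Adam17, and most of the commitment genes are among them.

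Promoter windows show which of the pathway's binding letters lie near the starts of these genes, and are printed for Hes5 and Hes6, the pair of highest rho, and for Neurod4. The windows are the 250 bases before a gene's start in RefSeq (GRCm38.p6), and 8 of the 9 genes matched, with 11 windows; the other gene is Vxn. Searched on both strands were TGGGAA, the core of the RBPJ site, CACNAG, the N-box of Hes repressors, and the E-boxes CAGATG and CAGCTG of bHLH factors, the last of which reads the same on both strands. Of 32851 windows of this length 21.6% hold TGGGAA, 36.7% CACNAG, 14.4% CAGATG and 13% CAGCTG. Of the 8 genes 1, Hes5, holds TGGGAA, with 2 matches, as in 2.77% of all windows. CACNAG was found in 3 (Neurod4, Notch1 and Hes6), CAGCTG in 3 (Dll1, Dll3 and Hes6) and CAGATG in 0. In the Hes5 window (chr4:154960673-154960922, plus strand) the capitals mark TTCCCA, the opposite strand's reading of TGGGAA, 226 bases before the start and TGGGAA 82 bases before it, and part of this window lies in Gm20421 on the opposite strand. In the first of 2 Hes6 windows (chr1:91414039-91414288, minus strand) they mark CAGCTG 171 bases before the start, while the CACNAG of Hes6 is in its second window, which is not printed. In the first of 2 Neurod4 windows (chr10:130280255-130280504, minus strand) they mark CACAAG 213 bases before the start and CTTGTG, its opposite strand reading, 90 bases before it. A match describes letters only, and binding was not measured.
Hes5: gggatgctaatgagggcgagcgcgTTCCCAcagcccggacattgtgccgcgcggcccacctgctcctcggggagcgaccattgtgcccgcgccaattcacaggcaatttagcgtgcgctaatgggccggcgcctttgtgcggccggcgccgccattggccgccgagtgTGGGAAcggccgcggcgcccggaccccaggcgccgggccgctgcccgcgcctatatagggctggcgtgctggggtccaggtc
Hes6: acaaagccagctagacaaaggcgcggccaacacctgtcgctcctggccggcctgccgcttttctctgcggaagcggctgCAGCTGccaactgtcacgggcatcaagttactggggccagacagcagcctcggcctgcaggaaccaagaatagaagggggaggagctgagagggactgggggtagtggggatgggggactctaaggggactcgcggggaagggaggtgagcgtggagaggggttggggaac
Neurod4: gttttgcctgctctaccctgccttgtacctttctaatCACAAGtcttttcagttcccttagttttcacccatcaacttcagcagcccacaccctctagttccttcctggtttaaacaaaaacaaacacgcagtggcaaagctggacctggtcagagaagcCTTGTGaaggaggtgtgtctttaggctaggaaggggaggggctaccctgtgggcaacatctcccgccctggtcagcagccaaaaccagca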

How the data were processed

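The authors deposited raw read counts per Ensembl gene from STAR-mapped polyA reads, 1 column per library; no STAR version or strand setting was found for them. The plate number of each sample is the one in the deposited sample sheet, another value than a count. Of 55487 genes 55227 were named by the annotation (260 unnamed genes held 0.117% of counts). Genes passed filterByExpr (minimum count 10) and were fitted across all genes with edgeR 4.0.16 (limma 3.58.1, R 4.3.3; TMM, robust quasi-likelihood), cell types with treatment as covariate, stimuli within each cell type, an F test over the 5 treatments and the interaction. P-values were adjusted over all genes (Benjamini-Hochberg), and called means adjusted p ≤ 0.05 with a log2 difference beyond 1 either way (adjusted p alone for the F test). Genes under the filter had exact two-sided permutation tests (scipy 1.17.1). The report gives ranges of depth and of its floor of 3 counts, and the totals of the 9 libraries of few counts. Alternatives were DESeq2 1.42.0, RLE, no or a stricter filter (minimum count 30), no robust step, a replicate block, adjusted p alone, and subsets of libraries, each library left out in turn included. The genes named are the 9 in every comparison, with a fold change for the 1 of smallest p per stimulus comparison, up to 3 genes of smallest p per pathway list, the most abundant marker per list and the 5 genes of most similar pattern. Members and lists were chosen with earlier results of these data known. Figures were drawn with matplotlib 3.10.9.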

Additional observations from a re-analysis of the deposited data

Results flagged for a closer look

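Groups of 4 libraries were examined where at least 1 library lay above its floor of 3 counts. In 24 of these 69 groups the highest or lowest library lay farther from the rest than Dixon's 95% critical ratio. Chance marks about 1 in 20 groups of normal values, which does not hold for skewed CPM with many zeros, so the 24 are not to be read against that rate. In 6 of the 24, all of ES-motor neurons, the other 3 libraries were at 0, which gives the largest ratio by itself. They were 12 ES-astrocyte and 12 ES-motor neuron groups, and no explanation was tested. In all of them 1 library was high.

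ES-astrocyte control replicate A stood out in 4 genes, with 99.2 CPM of Neurog1 (next 2.53), 212 CPM of Dll3 (next 36.6), 11.5 CPM of Hes5 (next 1.82) and 1068 CPM of Hes6 (next 198).

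Other ES-astrocyte libraries stood out in 1 or more genes. With IL-1α+TNF-α replicate B held 3.95 CPM of Hes5 and 264 CPM of Hes6. With C1Q+C5 replicate B held 18.9 CPM of Hes5 and replicate D 205 CPM of Dll3. With IL-1β+IL-6 replicate B held 4.03 CPM of Neurog1 and 164 CPM of Neurod4, and replicate C held 31.0 CPM of Neurog2. With TGF-β2 replicate D held 4.67 CPM of Neurog1.

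Among ES-motor neuron libraries, control replicate A held 9.04 CPM of Neurod4 and 3.62 CPM of Dll1, and control replicate B held 0.816 CPM of Hes5 and 28.6 CPM of Hes6. With IL-1α+TNF-α replicate A held 94.4 CPM of Hes6. With C1Q+C5 replicate B held 23.9 CPM of Dll3, replicate C 26.6 CPM of Vxn and replicate D 4.23 CPM of Dll1. With IL-1β+IL-6 replicate A held 10.8 CPM of Vxn and 67.2 CPM of Hes6. With TGF-β2 replicate B held 2.23 CPM of Neurod4 and replicate D 4.28 CPM of Neurog2.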

How the results depend on the processing

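Under each alternative that was run, 0 of the 9 genes were called in the stimulus, F and interaction tests and 0 pathway genes with a stimulus in ES-astrocytes, which does not show that none of them differs. Of the 23 pathway genes higher in ES-astrocytes, 3 were called in the control libraries only and 10 within plate 1, which hold fewer libraries; the other settings gave 19 to 24, and leaving out each library in turn 20 to 26. The count higher in ES-motor neurons, 0, was 1 with no filter, with the stricter filter, without libraries under 20% of the median total, within plate 2 and with adjusted p alone, and 0 to 1 with each library left out. With the replicate block the counts were 24 and 0. The block is the letter across all treatments, and the 2 libraries sorted from a co-culture were not fitted as a pair. Between the cell types, same-letter deviations from the group mean correlated from -0.165 to 0.11. Against control the highest such value was 0.427, with TGF-β2 in ES-astrocytes, where the lowest was -0.028. The log2 difference of Hes6 with TGF-β2 in ES-astrocytes (-1.47) ranged from -2.38 to 0.34 with 1 library left out, and its sign turned without control replicate A. ES-motor neurons with IL-1α+TNF-α and their interaction could not be fitted without the 9 libraries of few counts, since all 4 of that group are among them. Depth limits ES-motor neurons most, where a reading of 0 allows up to 202 CPM in the smallest library.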
